A study of Homo sapiens with 12 samples.

Results

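Binding of FoxK1, a forkhead transcription factor, was examined at 7 genes that the liver switches on in fasting: PCK1, G6PC, FBP1, PPARGC1A, IGFBP1, PDK4 and TXNIP. A FoxK1 peak was assigned to a gene when its summit, the base of highest coverage, lay within 5 kb of the gene's transcription start in build hg19. The 7 starts are chromosome 20, 56136137 (PCK1), chromosome 17, 41052814 (G6PC), chromosome 9, 97402531 (FBP1), chromosome 4, 23891700 (PPARGC1A), chromosome 7, 45927959 (IGFBP1), chromosome 7, 95225803 (PDK4) and chromosome 1, 145438462 (TXNIP). Of 223205 peaks in the 6 lists, 64 met this rule.

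Peaks came from chromatin immunoprecipitation and sequencing in HepG2, a hepatocyte-like line grown from a human liver carcinoma. Cells spent 16 h in serum-free medium with bovine serum albumin, and then received insulin (100 nM, 20 min) or stayed untreated. Each condition had 3 immunoprecipitated libraries with 1 peak list each, and the 6 input samples were not analysed here. Nothing in the labels says that the libraries came from separate cultures, so p-values measure the spread between these libraries, which may be technical.

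Several of these genes are classical targets of FoxO factors, forkhead proteins that activate them when insulin is low. Insulin acts through AKT to send FoxO proteins out of the nucleus, and transcription of PCK1, G6PC and IGFBP1 falls. FoxK1 recognises a DNA core like that of FoxO and has been reported to move into the nucleus after insulin, opposite to FoxO1. The comparison addresses whether FoxK1 occupied these fasting genes, and whether insulin changed that.

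There were 48208, 45057 and 27503 peaks per insulin library, against 44687, 31668 and 26082 per untreated library. Replicate 3 had the shortest list in both conditions and the fewest fragments at most of the sites below. Total read numbers are unknown. A peak's percentile is its standing by −log10 q among all peaks of its own list, where 100 is the strongest. Fragments at a summit and the background expected there were derived from the authors' fold and −log10 p, and they follow library depth as well as binding.

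FoxK1 peaks stood near 6 of the 7 starts in every library. PCK1, G6PC, IGFBP1, PPARGC1A, PDK4 and TXNIP each had at least 1 peak within 5 kb in 3 of 3 insulin and 3 of 3 untreated lists. As a background, 4.81% of the 10 kb tiles of chromosomes 1 to 22 and X held a summit in all 6 lists, and these tiles were not matched to promoters. FBP1 had a peak in 1 untreated list and in no insulin list. The number of genes with a peak was 6, 6 and 6 in the insulin lists, against 7, 6 and 6 in the untreated lists, a difference of -0.333 in the means. Strength differed widely between the 6 genes, with median percentiles between 33.98 for PPARGC1A and 99.8 for TXNIP.

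**Figure D1:**
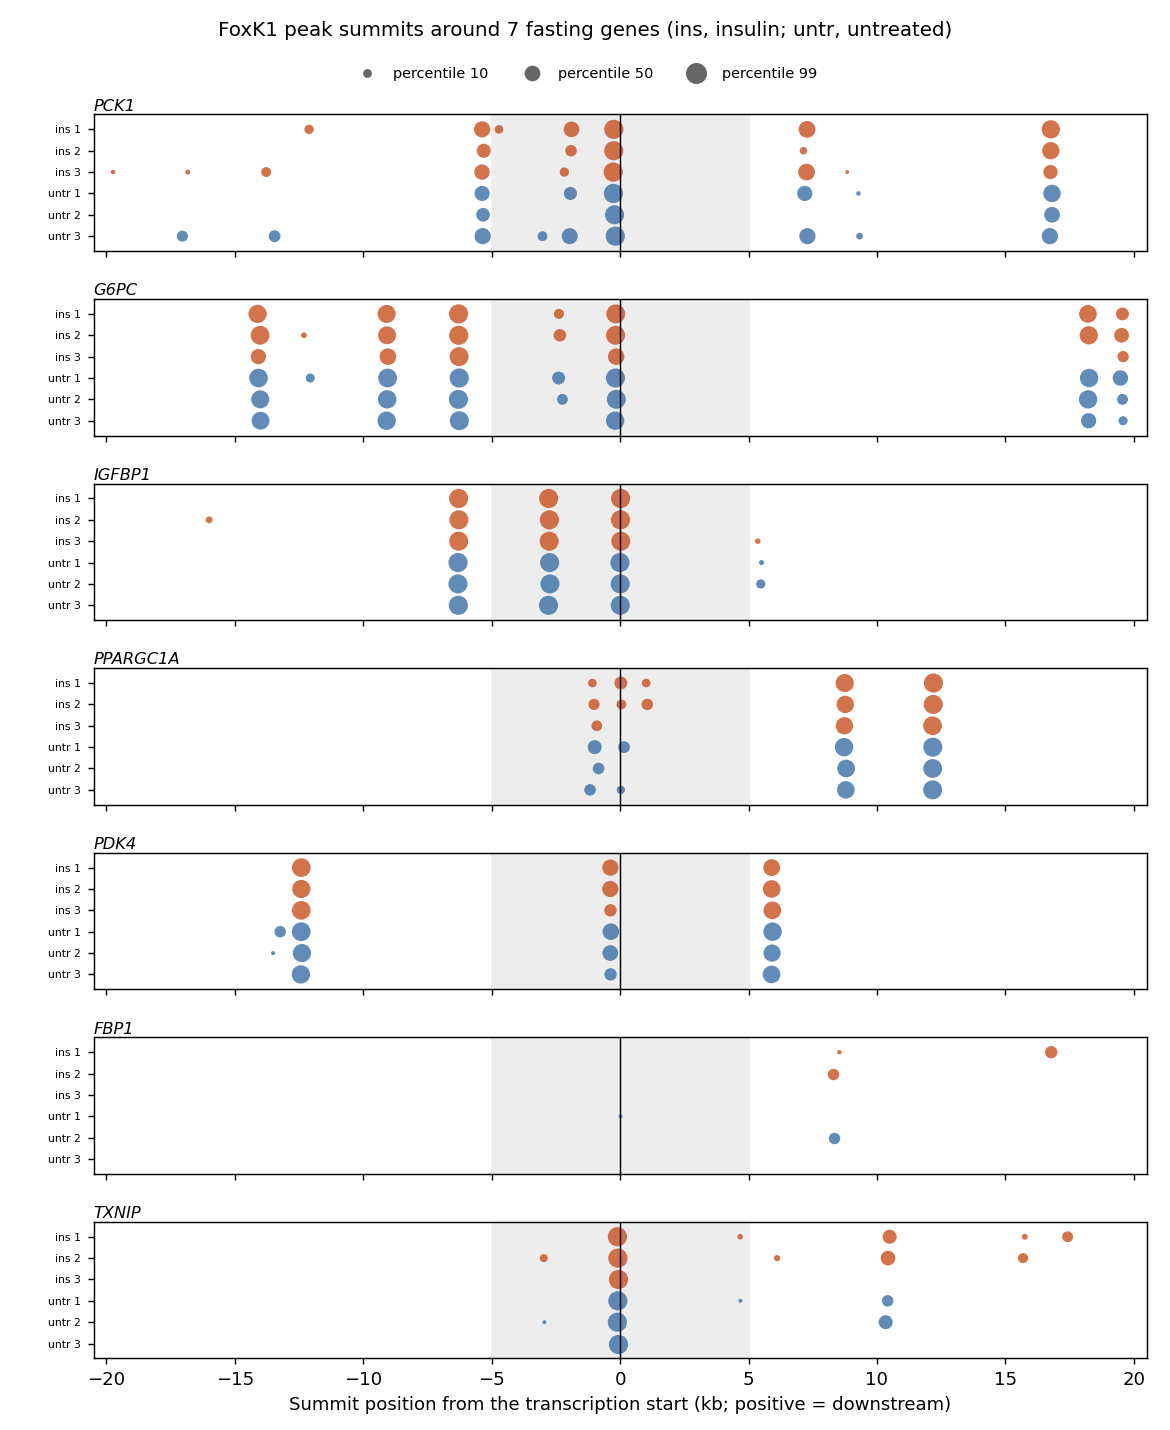
Summits within 20 kb of each transcription start, by library, with the distance from the start in kb on the x axis and point area growing with the peak's percentile in its list; the grey band marks 5 kb on either side. Columns of large points show sites called in every insulin (ins) and untreated (untr) library, including several outside the band, while FBP1 is nearly empty.

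PCK1 encodes cytosolic phosphoenolpyruvate carboxykinase, which commits carbon to gluconeogenesis. Its strongest peak lay just upstream of the start, with summits at -245, -246 and -269 bp in the insulin lists, against -261, -216 and -187 bp in the untreated lists. These summits span chromosome 20, 56135868 to 56135950. The percentiles were 99.6, 98.9 and 99.3 in the insulin lists, against 99.3, 97.8 and 99.3 in the untreated lists, so the site was among the strong sites of every list and the groups overlapped. The authors' folds over background were 36.6, 20.7 and 25.4 in the insulin lists against 17.99, 9.89 and 19.0 in the untreated lists. Every insulin fold was above every untreated one, as in 34.2% of the 15887 regions called in all 6 lists, and the median fold of whole lists was also higher after insulin (5.95, 5.58 and 4.78, against 4.65, 4.18 and 4.21). Ranked by fold among those regions, PCK1 differed by 0.732 percentile points (p = 0.7, two-sided exact permutation, n = 3 each). The summits carried 334, 347 and 127 fragments in the insulin libraries and 344, 164 and 127 in the untreated libraries. A weaker site, with a median position of -1.94 kb, was called in 3 insulin and 2 untreated lists at percentiles from 20.48 to 67.95.

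G6PC (G6PC1 in current nomenclature) encodes the catalytic subunit of glucose-6-phosphatase, which releases free glucose from the liver cell. Summits of its strongest peak lay at -168, -175 and -152 bp in the insulin lists, against -181, -149 and -192 bp in the untreated lists, within chromosome 17, 41052622 to 41052665. Percentiles were 96.2, 97.1 and 72.0 in the insulin lists, against 97.5, 96.2 and 90.0 in the untreated lists. Replicate 3 was the lowest of each condition, and insulin replicate 3 stood apart with a fold of 4.99 and 40 fragments over a background of 7.21. The other insulin libraries had 136 and 193 fragments, against 222, 130 and 63 in the untreated libraries. A second, weaker site at -2.36 kb was called in 2 lists of each condition and in neither replicate 3 list, at percentiles from 24.3 to 43.3.

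The bases upstream of the G6PC start are shown because the summits of all 6 lists lay less than 250 bp upstream of the start. Capitals mark a forkhead-type core, 1 of 3 words searched on both strands. The first word was TGTTTAC, the next one searched was TGTTTGC, and the last of the words was TGTTTTG; no matches overlapped here. The sequence is the 250 bases before the RefSeq start in GRCh38.p14, chr17:42900549-42900798, plus strand.
G6PC: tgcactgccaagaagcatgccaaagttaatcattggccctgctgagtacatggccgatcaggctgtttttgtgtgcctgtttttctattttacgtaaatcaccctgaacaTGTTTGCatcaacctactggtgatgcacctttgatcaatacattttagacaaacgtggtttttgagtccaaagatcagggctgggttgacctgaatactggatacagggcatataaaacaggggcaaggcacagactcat
The word TGTTTGC runs from -140 to -134 relative to that start. Among 35116 promoter windows of the same length, 3.23% held it on either strand. The RefSeq start and the hg19 start belong to different builds, so distances to summits and to the word are not compared base by base, and a match does not show binding.

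FBP1 encodes fructose-1,6-bisphosphatase, the gluconeogenic enzyme between the steps of PCK1 and G6PC. It was the exception among the 7 genes. No insulin list had a summit within 5 kb of its start, and of the untreated lists replicate 1 had one, at -22 bp. That peak stood at percentile 0.791 of its list, with a fold of 2.73 and 11 fragments over a background of 3.40. In the lists without such a peak, the nearest summit was 8540, 8303 and 27938 bp downstream in insulin replicates 1, 2 and 3, and 8314 and 27979 bp downstream in untreated replicates 2 and 3. Their percentiles ran from 1.69 to 47.3. A peak below each list's threshold could not have been seen, so binding at FBP1 was not detectable in 5 of 6 lists rather than shown to be absent.

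IGFBP1 encodes a liver-secreted protein that binds insulin-like growth factors and is strongly induced in fasting. It carried 2 strong sites within 5 kb in every list. At the start itself, the summits were at 21, 17 and 26 bp in the insulin lists, against -7, 4 and 6 bp in the untreated lists. Percentiles there were 99.2, 98.9 and 97.5 after insulin and 98.6, 97.9 and 97.6 without it, which overlapped. Folds there were 44.1, 37.8 and 20.0 after insulin and 16.9, 15.6 and 15.3 without it. Every insulin fold was above every untreated one, as in 34.2% of the 15887 regions called in all 6 lists. Ranked by fold among those regions, IGFBP1 differed by 1.37 percentile points (p = 0.3, two-sided exact permutation, n = 3 each). The summits held 223, 275 and 73 fragments in the insulin libraries and 253, 126 and 73 in the untreated libraries, over backgrounds of 2.69 to 14.02. At the upstream site, with a median position of -2.76 kb, summits fell between -2788 and -2731 bp. Its percentiles were 98.6, 98.9 and 97.8 in the insulin lists, against 98.1, 97.5 and 98.5 in the untreated lists. In replicate 3 of both conditions the upstream site was the stronger of the pair, and in the other 4 lists the site at the start was.

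PPARGC1A encodes PGC-1α, a coactivator that works with FoxO1 and other factors on gluconeogenic genes. Near its start FoxK1 peaks were weak and scattered. The site called in every list had summits at -1078, -1015 and -907 bp in the insulin lists, against -990, -839 and -1171 bp in the untreated lists. It stood at percentiles 17.1, 31.5 and 28.3 in the insulin lists, against 50.9, 34.2 and 33.7 in the untreated lists, with 12, 27 and 14 fragments against 32, 21 and 16. Each insulin percentile was below each untreated one, although these ranks come from lists of different lengths. A further site at the start (median position 0.04 kb) was called in 2 lists of each condition. One at 1.04 kb was called in insulin replicates 1 and 2 and in no untreated list, at percentiles of 17.2 and 33.4.

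PDK4 encodes a kinase that inactivates pyruvate dehydrogenase and so spares pyruvate when glucose is scarce. Within 5 kb it had a single peak in each list, of middling strength and at a very constant place. Summits lay at -377, -382 and -375 bp in the insulin lists, against -359, -382 and -371 bp in the untreated lists, within 23 bp of each other. Percentiles were 70.3, 69.8 and 39.5 in the insulin lists, against 72.8, 65.3 and 39.3 in the untreated lists, with replicate 3 lowest in both conditions and groups that overlapped. Positions are relative to the start used here, which could not be checked; a PDK4 model that starts elsewhere in hg19 would shift all of them alike. Fragments numbered 33, 46 and 16 in the insulin libraries and 55, 30 and 17 in the untreated libraries.

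TXNIP encodes thioredoxin-interacting protein, an arrestin-family protein that restrains glucose uptake. It had the strongest peak of the 7 genes in every list, and its summits lay at -104, -86 and -88 bp in the insulin lists, against -88, -106 and -87 bp in the untreated lists. The interval chromosome 1, 145438356 to 145438376 holds all 6 summits. The peak ranked 53rd, 64th and 85th in the insulin lists and 70th, 90th and 58th in the untreated lists, always above percentile 99.6. Folds reached 70.5, 61.6 and 35.6 after insulin, against 29.3, 21.9 and 36.2 without it, and fragments numbered 481, 637 and 158 against 538, 320 and 158. Besides it, 2 faint sites at -2.96 and 4.68 kb each appeared in 1 list of either condition, at percentiles of 14.6 or lower.

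The bases upstream of the TXNIP start are shown for the same reason, with the forkhead core in capitals. They are the 250 bases before the RefSeq start in GRCh38.p14, chr1:145996580-145996829, minus strand; this stretch of chromosome 1 is turned round between hg19 and GRCh38.
TXNIP: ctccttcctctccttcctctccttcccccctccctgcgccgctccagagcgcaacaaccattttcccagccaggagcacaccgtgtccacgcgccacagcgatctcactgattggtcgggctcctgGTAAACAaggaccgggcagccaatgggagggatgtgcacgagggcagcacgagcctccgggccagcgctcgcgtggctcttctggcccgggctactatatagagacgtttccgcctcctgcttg
GTAAACA is TGTTTAC read on the other strand and runs from -124 to -118. It was found on either strand in 2.98% of the 35116 promoter windows, and any of the 3 words in 9.98%. RefSeq windows were matched for 5 of the 7 genes, and none of the 3 words was found in those of PDK4, FBP1 and PPARGC1A. The RefSeq windows of PPARGC1A and FBP1 could not be tied to the starts used here. Of 32 other genes of the pathway, among them PCK2, IRS2 and FOXO1, 27 had a window and 4 of these held 1 of the words (14.8%, against 12.04% of all 27305 genes with a window). Their peaks were not examined, because no hg19 annotation was used here.

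**Figure D2:**
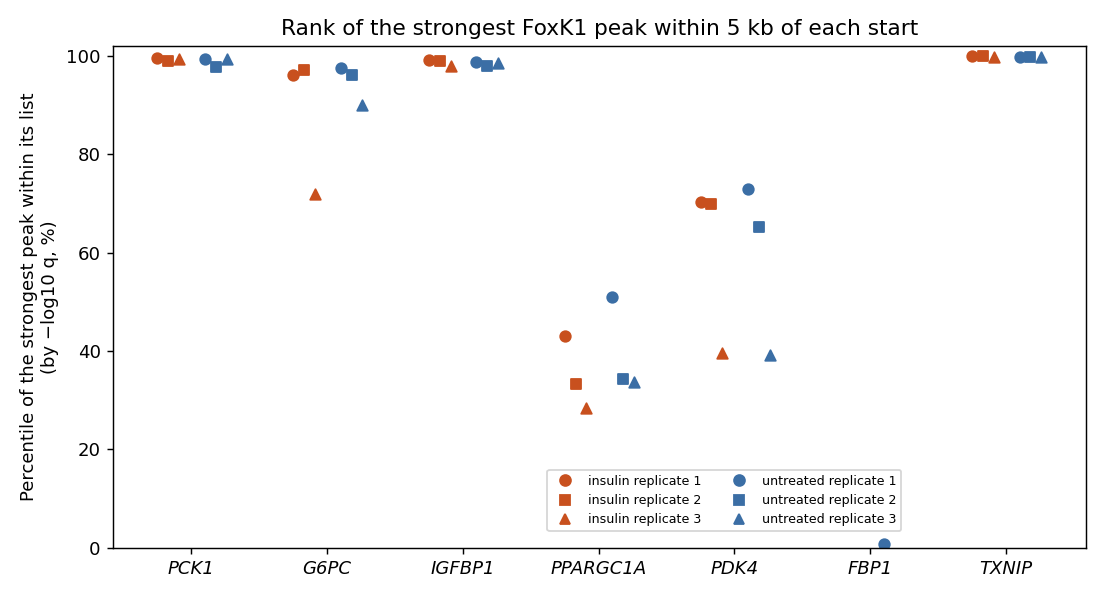
Percentile by −log10 q of the strongest peak within 5 kb of each start (y axis, %) for each gene (x axis), with insulin libraries left and untreated libraries right; each point is 1 library and the marker shape gives the replicate. PCK1, IGFBP1 and TXNIP lie at 97.8 or higher in all lists, while G6PC, PDK4, PPARGC1A and the single FBP1 point (0.791) lie lower, G6PC farthest in insulin replicate 3 (72.0).

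**Figure D3:**
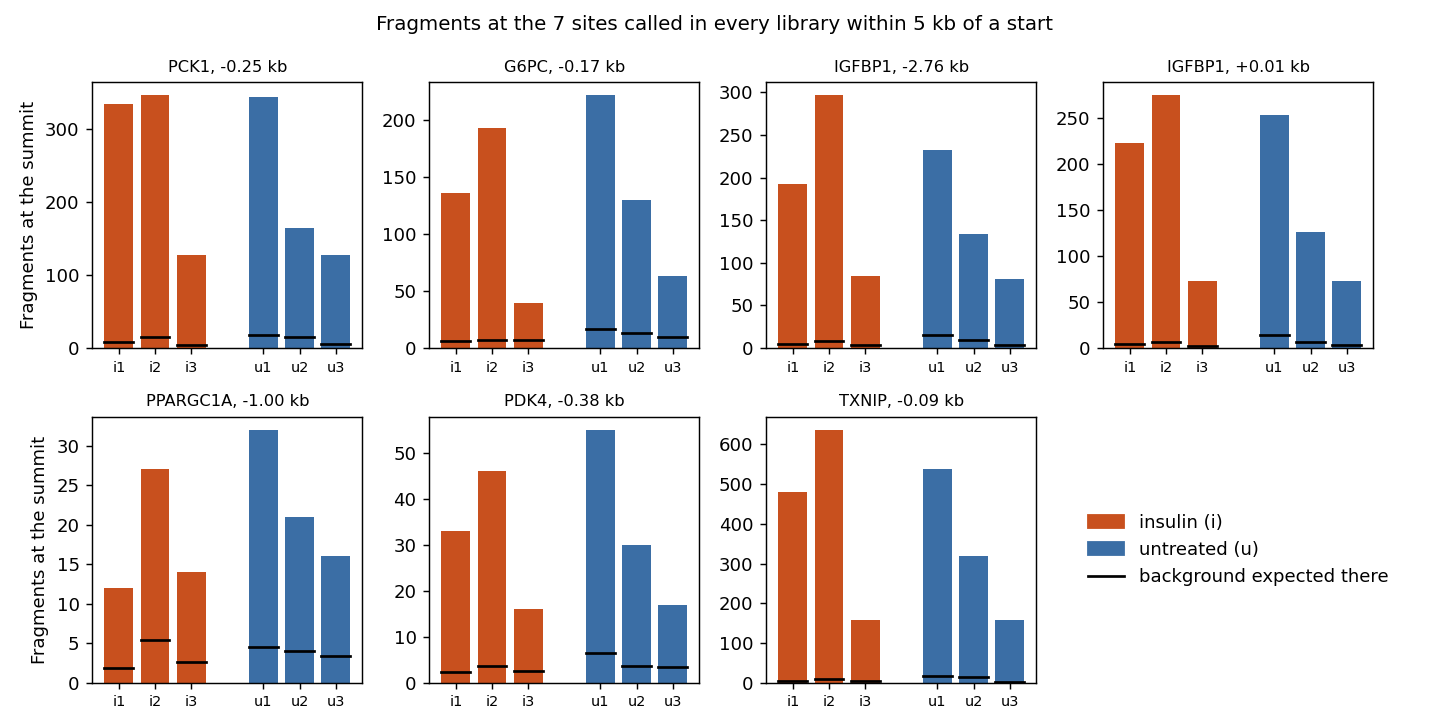
Fragments at the summit (bars, y axis from 0) in each insulin (i) and untreated (u) library at the 7 sites within 5 kb that were called in all 6 lists, with the derived background as a black line. Scales differ between panels; replicate 3 is the lowest insulin library at 6 of the 7 sites and the lowest untreated library at all of them.

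The rule's limit cut through occupied ground. The outermost summits inside it were faint, at -4715 bp of PCK1 in insulin replicate 1 (percentile 17.4) and at 4674 and 4686 bp of TXNIP in insulin and untreated replicate 1 (percentiles 4.97 and 0.731). Just outside it lay a PCK1 site between -5378 and -5307 bp, called in all 6 lists at percentiles from 48.2 to 70.2. At IGFBP1 a weak site between 5363 and 5504 bp appeared in 1 insulin and 2 untreated lists. A wider span of 20 kb, chosen after the values were seen, held 16 sites within 5 kb and 30 sites beyond it, where summits up to 300 bp apart count as 1 site. Of these, 7 and 11 were called in all 6 lists, against 23.3% of the 68127 merged regions of the whole lists. Merged regions join overlapping peaks and are not the same units as sites. The PCK1 site at -4.72 kb, called in 1 list, lay in a region called in all 6.

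For PPARGC1A, PDK4 and G6PC the strongest site within 20 kb lay beyond 5 kb in every list. At PPARGC1A a site 12166 to 12201 bp downstream of the start stood at percentiles 98.9, 97.8 and 94.5 in the insulin lists, against 97.9, 95.3 and 97.1 in the untreated lists, far above the weak sites at the start. Its summits lay on chromosome 4 between 23879499 and 23879534 and held 186, 216 and 68 fragments after insulin and 207, 101 and 67 without it. A companion site at 8.76 kb was called in all lists at percentiles from 80.2 to 90.2. At PDK4 a site at -12.41 kb had percentiles from 88.7 to 94.6 and one at 5.91 kb from 75.2 to 91.1. G6PC had sites in all 6 lists at -14.05, -9.07, -6.28 and 19.56 kb, the last at percentiles from 19.5 to 63.3. The nearest, at -6.28 kb, had percentiles from 97.1 to 99.2. Its summits carried 215, 322 and 95 fragments in the insulin libraries and 351, 182 and 105 in the untreated libraries. IGFBP1 had a further strong site at -6.29 kb, with percentiles from 97.7 to 99.5, which stood above both of its sites within 5 kb in insulin replicate 3 and untreated replicates 1 and 3. PCK1 had a site in all 6 lists at 16.77 kb, with percentiles from 52.9 to 89.7. No annotation of hg19 was used, so exons, introns and other genes in these spans are not named.

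Peak calls did not separate the conditions at any of the 7 genes. The number of peaks within 5 kb was the same in every list for IGFBP1 (2) and PDK4 (1). PCK1 had 3, 2 and 2 peaks after insulin and 2, 1 and 3 without it (p = 1, two-sided exact permutation, n = 3 each). PPARGC1A had 3, 3 and 1 in the insulin lists, against 2, 1 and 2 in the untreated lists, a difference of 0.667 that was smaller than the spread of the insulin libraries (p = 0.6, two-sided exact permutation, n = 3 each). Without insulin replicate 3 it was 1.33, with groups that did not overlap, and without both replicate 3 libraries 1.5. It was 0.333 without insulin replicate 1, insulin replicate 2 or untreated replicate 2, and -1 with lists cut to equal length. Means of G6PC and TXNIP were 1.67 in both conditions. Of the 16 sites within 5 kb and the 30 from 5 to 20 kb, none was called in 3 lists of one condition and 0 of the other. Over all 68127 merged regions that share was 0.376% for insulin and 0.0352% for untreated. A merged region can hold more than 1 site, so these shares are only a rough background. With 3 against 3 libraries the smallest possible p is 0.1, so these tests cannot pass a threshold of 0.05, and 7 genes were compared.

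Because the lists differ in length, strength was compared among the 15887 regions called in all 6 libraries, ranked by −log10 q in each library. Such ranks cannot show a change in binding that most regions share. Sites already near the top of the scale have little room to rise, so small differences there do not show unchanged binding. PCK1 averaged 98.1 ± 1.18 after insulin and 97.5 ± 1.68 without it (SD, n = 3 each), a difference of 0.616 percentile points (two-sided exact permutation p = 0.7). IGFBP1 averaged 96.8 ± 0.980 after insulin and 96.0 ± 0.210 without it at its start (SD, n = 3 each; two-sided exact permutation p = 0.4), and its -2.76 kb site differed by 0.583 points (exact permutation p = 0.6). TXNIP averaged 99.6 ± 0.102 in insulin libraries and 99.5 ± 0.102 in untreated libraries (SD, n = 3 each; two-sided exact permutation p = 0.7). At these 3 strong sites the differences were smaller than the spread between replicates of at least 1 condition. For PCK1 and TXNIP the sign turned when untreated replicate 2 was left out, to -0.310 and -0.0199 points, and for TXNIP also without insulin replicate 1 (-0.0115).

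G6PC averaged 78.0 ± 21.0 after insulin and 89.7 ± 5.27 without it (SD, n = 3 each; two-sided exact permutation p = 0.5). The difference of -11.8 points rested on insulin replicate 3, and was 0.277 without that library. PDK4 had 29.1, 29.9 and 15.9 in the insulin libraries and 37.5, 41.0 and 16.5 in the untreated libraries, which overlapped (p = 0.5, two-sided exact permutation, n = 3 each). Its difference of -6.70 points was -14.5 when untreated replicate 3 was left out. The groups then lay apart (p = 0.1, two-sided exact permutation, 3 against 2 libraries). It was -1.68 when insulin replicate 3 was left out. Leaving out untreated replicate 1 gave -3.72, and untreated replicate 2 gave -1.66.

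The labels do not state pairs, and pairing by replicate number is an assumption. Within same-numbered pairs, PDK4 was lower after insulin in 3 of 3 (differences of -8.36, -11.1 and -0.620 points) and so was G6PC (-4.69, -0.781 and -29.9). PPARGC1A, at its -1 kb site, was the remaining gene lower in every pair (-12.4, -9.55 and -3.68). Each gave p = 0.25 in a two-sided exact sign-flip permutation test, the smallest that 3 pairs allow. Of all shared regions, 13.8% were lower in every pair and 14.6% higher.

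Without regard to pairs, PPARGC1A was the gene whose site near the start separated the conditions, at the low end of the scale. Its site at -1 kb stood at 0.894, 2.16 and 8.34 in the insulin libraries and at 13.3, 11.7 and 12.02 in the untreated libraries. Every insulin value was below every untreated value, a difference of -8.54 points in the means (two-sided exact permutation p = 0.1, the smallest possible with n = 3 each). Over all shared regions, 4.31% were below in this way and 4.66% above, and the median absolute difference was 5.78 points. After Benjamini-Hochberg adjustment over the 15887 regions the smallest exact permutation p was 0.999. With 3 against 3 libraries no region could have had an unadjusted p under 0.05. The difference was -13.0 without insulin replicate 3 and -24.4 when peaks were ranked by fold. The summit had between 12 and 32 fragments in the 6 libraries.

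**Figure D4:**
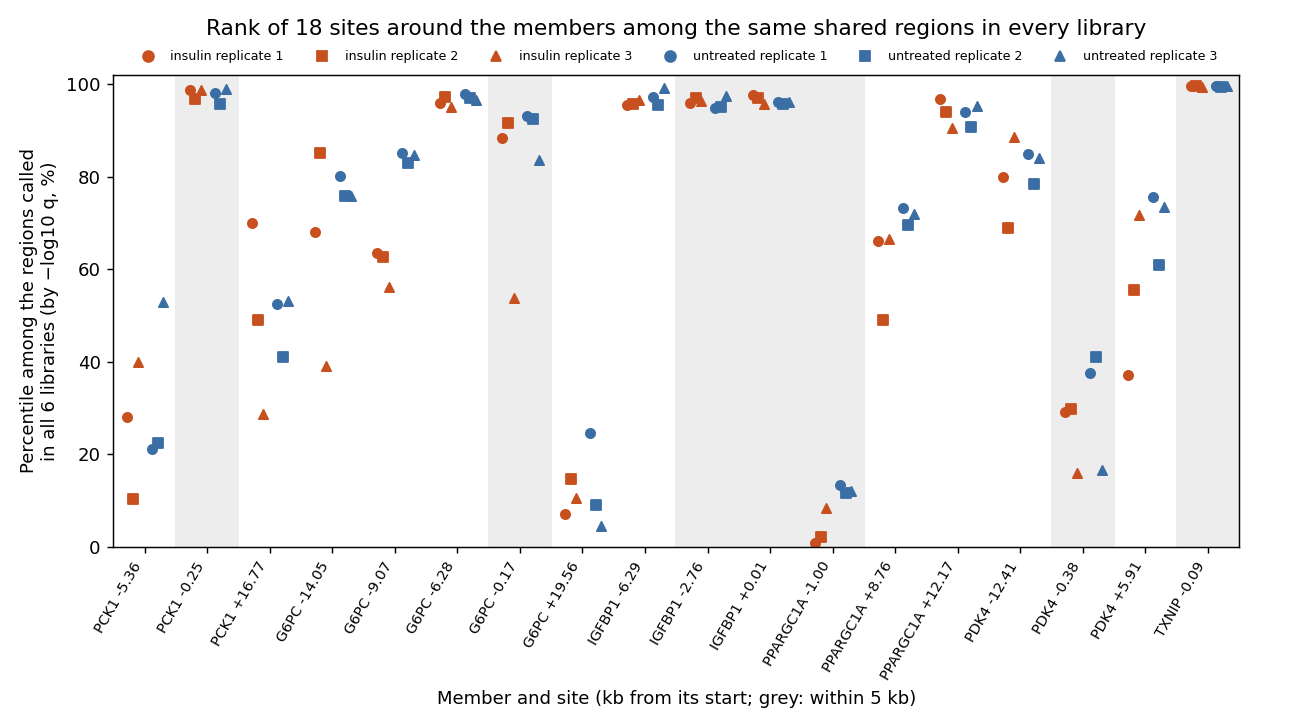
Percentile among the 15887 regions called in all 6 libraries (y axis, %) for the 18 sites within 20 kb called in every library (x axis, kb from the start; grey for sites within 5 kb), with insulin libraries left and untreated libraries right of each pair. Insulin and untreated points do not overlap at G6PC -9.07, PPARGC1A -1 and PPARGC1A 8.76, in each case with insulin lower.

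Among the 11 sites from 5 to 20 kb that were called in all lists, 2 were below in every insulin library and 0 above. The shares over all shared regions were 4.31% below and 4.66% above. The G6PC site at -9.07 kb stood at 63.5, 62.6 and 56.1 in the insulin libraries and at 85.1, 83.0 and 84.7 in the untreated libraries, a difference of -23.6 points (p = 0.1, two-sided exact permutation, n = 3 each). Of all shared regions, 95% differed by 20.4 points or less in either direction. The -9.07 kb site had the largest difference of the 18 sites, in a span chosen after the values were seen. The PPARGC1A site at 8.76 kb stood at 66.0, 49.0 and 66.5 in the insulin libraries and at 73.2, 69.5 and 71.9 in the untreated libraries, a difference of -11.0 points (p = 0.1, two-sided exact permutation, n = 3 each). Without insulin replicate 2, and with the ranks kept, it was -5.27. The difference at the G6PC site stayed between -25.0 and -21.3 with each library left out in this way. The strong G6PC site at -6.28 kb and the strong PPARGC1A site at 12.17 kb overlapped between conditions, with differences of -1.15 points (-1.72 to -0.634 with each library left out) and 0.323 points (-1.18 to 1.93).

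Without both replicate 3 libraries, 5 of the 6 genes had both insulin values on one side of both untreated values. IGFBP1 (0.837 points) and TXNIP (0.0853) were higher after insulin, and G6PC (-1.72), PPARGC1A (-19.0) and PDK4 (-8.47) were lower. Among the 25214 regions shared by those 4 libraries, 17.6% were higher in this way and 16.0% lower, and 2 against 2 libraries cannot give an exact permutation p below 0.333.

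Summit positions at the same site, a comparison chosen after seeing the data, differed little between conditions. The planned measure was the summit of each list's own strongest peak, which can be a different site. By that measure IGFBP1 differed by 22.7 bp and PPARGC1A by 1060 bp (two-sided exact permutation p = 0.5 and p = 0.2, n = 3 each). The PPARGC1A peaks were at 29, 1059 and -907 bp in the insulin lists and -990, -839 and -1171 bp in the untreated lists. At the start of IGFBP1 the mean position was 21.3 ± 4.51 bp after insulin and 1 ± 7 bp without it (SD, n = 3 each), and the positions did not overlap (two-sided exact permutation p = 0.1). The IGFBP1 site at -6.29 kb showed the same order, with -6283 ± 5.29 bp and -6307 ± 7.94 bp (SD, n = 3 each; two-sided exact permutation p = 0.1), while the site at -2.76 kb overlapped. Of the 18 sites these were the 2 whose summits lay apart by condition, against 8.91% of all shared regions. At PCK1, G6PC, PDK4, TXNIP and the -1 kb site of PPARGC1A, mean positions differed by -32, 9, -7.33, 1 and 0 bp, with groups that overlapped. The PCK1 difference was -7 bp without both replicate 3 libraries and -14.8 bp without untreated replicate 3. It was -51.8 bp without untreated replicate 1, where the groups no longer overlapped (p = 0.1, two-sided exact permutation, 3 against 2 libraries). That of PDK4 was -1.5 bp without untreated replicate 1 and -13 bp without untreated replicate 2, where the groups also lay apart. For G6PC it lay between 0 and 21.5 bp with each library left out, and for TXNIP between -5.17 and 6.67 bp. The 21.5 bp of G6PC came without untreated replicate 2, where its groups also lay apart (p = 0.2, two-sided exact permutation).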

How the data were processed

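FoxK1 peak lists of 3 insulin and 3 untreated HepG2 libraries were used, grouped by the sample titles. The submitters' processing notes name fastp, Bowtie2, SAMtools, MACS2 and build hg19. Neither versions nor a calling threshold stand in the sources used here. Each library has its own list deposited by the authors. The deposited fold is a ratio over the background estimated by MACS2. Both −log10 p and −log10 q, as deposited, grow with depth, and the lowest deposited −log10 p was between 3.00 and 3.01 in each list. In 100% of peaks the deposited score differed from 10 times the −log10 p by at most 1. The position columns deposited by the authors were converted to 1-based coordinates.

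Starts and members, lists and settings were chosen with earlier results of these data known. All 7 members are named. Gene orientation in hg19 was taken from general knowledge, and neither orientation nor starts could be checked against an hg19 annotation. A gene's strongest peak has the highest −log10 q. Peaks sharing 1 bp were merged into regions, and the region of a gene is the one within 5 kb, called in all 6 lists, with the highest mean percentile. Fragments were solved from (fragments + 1)/(background + 1) = fold and a Poisson upper tail for p, within 0.0005 on the −log10 scale (in proportion above 10), and a single whole number was found for 100% of 169 peaks. They carry no error estimate; precision is limited by depth, which is unknown. Differences used two-sided exact permutation tests over 20 assignments. The code was run on simulated data with backgrounds below many of those here and a rank shift far above the simulated noise. That run does not show how well small differences are found. Over the shared regions, deviations of same-numbered libraries from their condition means correlated at 0.123, 0.300 and 0.307. Those of differently numbered libraries correlated at -0.321 to 0.0933, values that deviations from a common mean push down. The labels do not state pairs, so pairing by the replicate numbers in the titles was an assumption. Whether shared depth gave these correlations was not tested. The alternatives were other windows, filters, rankings and list lengths, the replicate block, and libraries left out. Python 3.11.15, numpy 2.4.6, pandas 2.3.3, scipy 1.17.1 and matplotlib 3.10.9 were used.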

Additional observations from a re-analysis of the deposited data

How the results depend on the processing

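The number of genes called in every list was 6 under all alternatives except −log10 q of at least 5 (4 genes, without PPARGC1A and PDK4) and equal list lengths (5 genes). The difference in genes called per library was -0.333, 0.333 with −log10 q of at least 5, -0.667 with equal list lengths, and -0.5 to 0 with each library left out. With the replicate block it stayed -0.333; two-sided exact sign-flip tests over pairs cannot go below 0.25, and the block changed no call. No gene had peak numbers that separated the conditions, except 1 (PPARGC1A) without insulin replicate 3 or without both replicate 3 libraries; the range with each library left out was 0 to 1. The peak-number difference changed sign for PCK1 with equal lengths (-0.333) and lay between -0.167 and 0.833 when single libraries were left out. For PPARGC1A it was -0.333 within 1 kb and -1 with equal lengths. The median percentile of the strongest PDK4 peak was 67.6, but 46.5 with equal lengths and 81.1 when ranked by fold. Over the alternatives it stayed between 93.9 and 96.2 for G6PC, 97.9 and 98.9 for IGFBP1, and 31.3 and 40.4 for PPARGC1A.

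Shared-region percentiles were separated for 1 gene, for 0 with −log10 q of at least 5 (PPARGC1A then leaves the shared regions), 5 without both replicate 3 libraries and 1 to 3 with each library left out; fewer libraries separate more easily. Over these the difference went from -0.310 to 1.29 for PCK1, -18.6 to 0.277 for G6PC and -0.0199 to 0.0798 for TXNIP, and that of PPARGC1A stayed negative (-13.0 to -7.15) and was -24.4 with ranking by fold. IGFBP1 ranged from 0.311 (without insulin replicate 1) to 1.14 (without insulin replicate 3), where its groups lay apart (two-sided exact permutation p = 0.1). Those of PDK4 lay apart without untreated replicate 3. Taking each list's own strongest peak, 0 genes had separated summits, against 1 with the peak nearest to the start, 1 with the same region in every list (chosen after seeing the data), 2 without both replicate 3 libraries and 0 to 3 with each library left out. Own strongest peaks can be different sites, so that difference ranged from -906 to 949 bp for IGFBP1 with each library left out. For PPARGC1A it was 1060 bp, 561 to 1544 bp with each library left out, and changed sign to -57.3 bp with the nearest peak. The difference was -6.50 bp for G6PC without both replicate 3 libraries. With each library left out it was -5.17 to 6.67 bp for TXNIP and -51.8 to -14.8 bp for PCK1. Leaving out libraries at sites from 5 to 20 kb was added after seeing the data. The cause was not tested. Peaks near the 32 pathway genes were not examined, and read depth is unknown. Whether depth limited the calls at weak sites such as those of FBP1 and PPARGC1A was not tested.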
